A study of Mus musculus with 6 samples.

Results

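The desmosome and cornified linker genes described here were Dsp, Dsg2, Dsc2, Jup, Pkp1, Pkp2, Pkp3, Ppl, Evpl and Perp. They were chosen by symbol, and all 10 were found among the 54453 Ensembl genes of the tables. Each of the 10 passed the filter on low counts that left 14169 genes for testing. The libraries came from 3 mouse pancreatic tumour organoid lines, T91, T113 and T118, labelled as PDAC (pancreatic ductal adenocarcinoma) KPF/FC organoids of the KPC kind and grown in Matrigel, a basement membrane gel. The first group of 3 libraries carried a short hairpin RNA (shRNA) against Scrib, number 5523, and the second group carried an shRNA against Renilla luciferase, a sequence with no mouse gene. Each line gave 1 library per hairpin, and the KPF/FC genotype was shared by both groups. T91 was female and at passage 10, T113 was male and at passage 13, and T118 was male and at passage 11, so that line, sex and passage cannot be told apart. A single hairpin against Scrib was used in these libraries. The labels speak of virus infection and the design text of transfected plasmids, so the route of delivery is not settled here.

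Desmosomes are button-like junctions that hold epithelial cells together and anchor their keratin filaments. Desmogleins and desmocollins are the cadherins that reach across to the next cell, plakoglobin and the plakophilins bind their tails, and desmoplakin ties that plaque to keratin. Periplakin and envoplakin are plakins best known from the cornified envelope of the epidermis, and Perp is a small membrane protein needed for stable desmosomes in mouse epidermis. Simple glandular epithelia, the pancreatic duct among them, build their desmosomes mainly from Dsg2, Dsc2 and Pkp2, whereas stratified epithelia add further cadherins and Pkp1.

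In GRCm38, Dsp lies on the plus strand at chr13:38151294-38198577, Jup on the minus strand at chr11:100368958-100397763 and Evpl on the same chromosome and strand at chr11:116220559-116238077. Pkp1 is at chr1:135871395-135919207 (minus), Pkp2 at chr16:16213318-16272712 (plus), Pkp3 at chr7:141078218-141090510 (plus), Ppl at chr16:5086291-5132421 (minus) and Perp at chr10:18845020-18857073 (plus). All 10 are protein-coding, and their values are sums over whole genes, not over single exons or isoforms.

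Promoter windows from RefSeq on GRCm38.p6, 250 bases before to 50 after the annotated start, were matched by symbol for 2 of the 10 genes. The matched genes were Dsp and Jup, which encode core plaque proteins, and Dsp had the ratio farther from 0 in T91. Capitals mark the GC box GGGCGG, a site of SP and KLF factors, read on both strands. The windows are chr13:38151044-38151343 (plus strand, GRCm38.p6) and chr11:100397741-100398040 (minus strand, GRCm38.p6).
Dsp: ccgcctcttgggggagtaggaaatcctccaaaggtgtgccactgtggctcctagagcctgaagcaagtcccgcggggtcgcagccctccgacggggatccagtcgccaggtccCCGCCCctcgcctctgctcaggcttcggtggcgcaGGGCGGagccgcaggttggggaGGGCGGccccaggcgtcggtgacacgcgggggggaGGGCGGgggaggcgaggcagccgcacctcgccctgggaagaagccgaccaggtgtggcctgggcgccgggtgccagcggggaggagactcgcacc
Jup: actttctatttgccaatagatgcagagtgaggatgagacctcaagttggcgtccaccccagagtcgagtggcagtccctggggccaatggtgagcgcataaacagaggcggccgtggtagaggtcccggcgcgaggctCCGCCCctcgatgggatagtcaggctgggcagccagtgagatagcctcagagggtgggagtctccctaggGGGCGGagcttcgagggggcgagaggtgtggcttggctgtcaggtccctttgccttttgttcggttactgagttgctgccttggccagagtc

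The Dsp window held 4 GC boxes and the Jup window 2, a motif present in 35.7% of the 32851 windows of the table. GC content was 73.0% for Dsp and 60.7% for Jup, against a median of 52.7% over all windows. The E-box CAGGTG, bound by Snail and ZEB repressors, occurred once in the Dsp window, 4 bases into the transcribed part, and not in the Jup window (20.2% of all windows hold it). Neither AACNNGTT, a core bound by grainyhead-like factors (4.2% of all windows), nor the AP-1 site TGANTCA (7.81%) was in these letters. The motifs do not overlap each other, and a match is a description of the sequence, not a bound site.

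Summed estimated counts ran from 24035265 to 36235481 per library after rounding, so that 1 count was worth 0.0276 to 0.0416 CPM (reads scaled to a common library size) before TMM scaling, which all CPM values below include. Every member had at least 210 counts in every library. Scrib itself had 29.7, 34.99 and 30.04 CPM with the Scrib hairpin in T91, T113 and T118, against 177, 157 and 158 CPM with the Renilla hairpin. The fitted log2 fold change of Scrib was -2.38 (standard error, SE, 0.12), with an adjusted p of 0.00582 by edgeR's quasi-likelihood test. Scrib was the 1 gene of 14169 that passed the adjusted threshold of 0.05, a background of 0.00706%. The tissue check gave high levels of epithelial markers, at 7576 to 10635 summed CPM with the Scrib hairpin and 8209 to 13248 with the Renilla hairpin for 8 genes. Markers of squamous epithelium (6 genes) summed to 0.195 to 1.17 CPM with the Scrib hairpin and 0.485 to 0.905 CPM with the Renilla hairpin, endothelial markers to at most 0.463 CPM and acinar markers to at most 0.841 CPM in any library. The 8 fibroblast markers summed to 1.37 to 7.70 CPM with the Scrib hairpin, highest in T91, and to 1.11 to 1.70 CPM with the Renilla hairpin. Both measured ones, Col1a1 and Col1a2, had log2 fold changes of 1.60 and 1.19 with unadjusted p of 0.0145 and 0.0396 and adjusted p of 0.712 and 0.748 by edgeR, and their part in the results was not tested. Immune markers summed to 2.15 to 6.01 CPM with the Scrib hairpin and 3.42 to 4.50 CPM with the Renilla hairpin, and endocrine markers to at most 1.46 CPM. Neural markers summed to 72.5 to 104 CPM with the Scrib hairpin and 76.7 to 101 CPM with the Renilla hairpin. Lum was at 0 in all libraries, as were Ptf1a, Amy2a2, Ins1, Ins2 and Sox10.

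Per exon length the desmosome genes covered a wide range, with Perp and Jup at the top and Pkp1 at the bottom. Perp averaged 104 ± 19.1 CPM per kb of exon over the 6 libraries (SD, n = 6) and Jup 55.8 ± 6.54, followed by Ppl at 41.5 ± 10.96 and Dsp at 33.9 ± 8.47. Dsg2 averaged 23.9 ± 8.93 CPM per kb, Pkp3 21.8 ± 4.70 and Pkp2 15.7 ± 1.83. Dsc2 stood at 9.31 ± 5.37, Evpl at 7.45 ± 0.639 and Pkp1 at 3.36 ± 2.04 CPM per kb. Neighbours in this order that differed by less than the SD of at least 1 of the pair were Ppl and Dsp, Dsg2 and Pkp3, and Dsc2 and Evpl. The order depends on the length used. With the longest protein-coding transcript in place of the union of exons, Jup came first at 112 CPM per kb and Perp second at 104 (the Jup length is 3205 bases by the first rule and 6436 by the second).

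**Figure D1:**
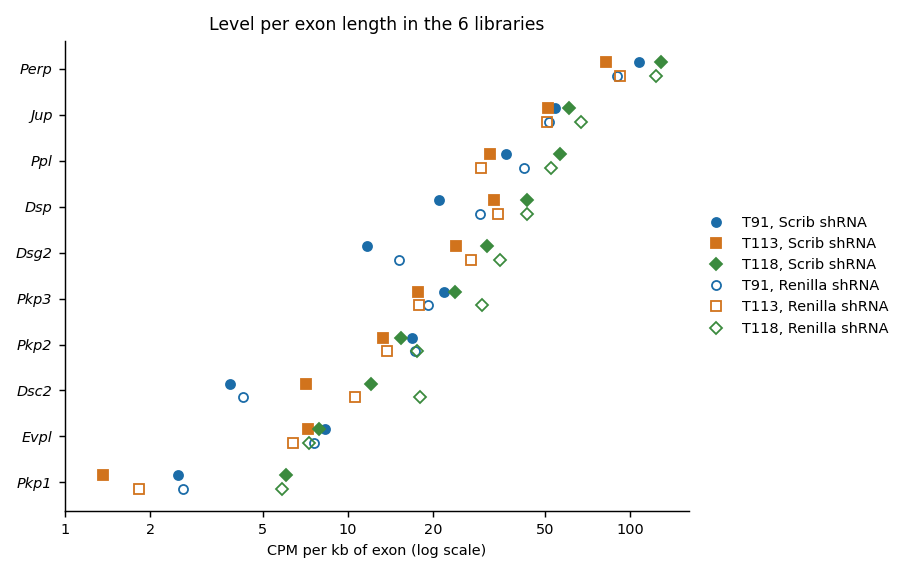
Level of each gene in CPM per kb of exon (log axis) in the 6 libraries, filled symbols for the Scrib hairpin and open symbols for the Renilla hairpin, with colour and shape for the line. Evpl and Pkp2 sit in narrow ranges (highest over lowest library 1.29 and 1.32), whereas Dsc2 spreads 4.67-fold and Pkp1 4.43-fold.

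The desmosomal cadherin genes Dsg2 (plus strand) and Dsc2 (minus strand) lie on chromosome 18. Both were lower with the Scrib hairpin in all 3 lines, but neither passed the test over all genes. Dsc2, a desmocollin, had 20.3, 37.4 and 63.6 CPM with the Scrib hairpin in T91, T113 and T118, against 22.5, 56.2 and 94.8 CPM with the Renilla hairpin. The Scrib library was the lower one in each line, while the groups overlapped because T118 lay above T91 whichever hairpin it carried. Its log2 fold change was -0.44 (SE 0.12, 95% interval -0.73 to -0.16), with an unadjusted p of 0.00879 and an adjusted p of 0.673 by edgeR's quasi-likelihood test. Within lines, Dsc2 was 33.4% lower in T113 (95% counting interval 28.4 to 38.0% lower) and 32.9% lower in T118 (28.7 to 36.8%). In T91 it was 9.89% lower, with an interval from 20.01% lower to 1.45% higher. These intervals are exact (Clopper-Pearson) and cover counting error only, not the spread between cultures.

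Leaving out T91 changed the call for Dsc2. Its log2 fold change without T91 was -0.58 (SE 0.09), with an adjusted p of 0.0361 by the same edgeR test, in a fit that called 94 of 14366 genes (0.654%), 78 of them lower (0.543%). Without T113 the value was -0.36 and without T118 -0.38, and neither passed. Each of these fits rests on the pairs of the remaining lines alone, with fewer residual degrees of freedom than the fit over all lines.

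Dsg2, the desmoglein of simple epithelia, had 96.6, 199 and 257 CPM with the Scrib hairpin in T91, T113 and T118, against 125, 225 and 285 CPM with the Renilla hairpin. Again each Scrib library was below its partner and the groups overlapped. The log2 fold change was -0.23 (SE 0.10, 95% interval -0.46 to -0.0017; unadjusted p of 0.0488, adjusted p of 0.753 by edgeR). Without T91 it was -0.16 (unadjusted p of 0.0884), and without T118 -0.28. Within lines, Dsg2 was 22.7% lower in T91, 11.4% lower in T113 and 9.86% lower in T118. In bulk libraries, fewer cells with a junction and less RNA per cell cannot be told apart.

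The balance of the cadherins differed by line. Per exon length, the Dsc2 to Dsg2 ratio was 0.295 with the Scrib hairpin and 0.392 with the Renilla hairpin in T113, and 0.388 and 0.522 in T118. In T91 it ran the other way, at 0.329 with the Scrib hairpin and 0.282 with the Renilla hairpin. With the length trend described below taken out, the T91 log2 ratios were -0.10 for Dsc2 and -0.19 for Dsg2, closer to each other than the -0.15 and -0.37 before it. A ratio within a library is free of the scaling between libraries, and with 1 pair per line the difference between lines was not tested.

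Among 10 members, Dsc2 and Dsg2 were the 2 with an unadjusted p under 0.05, both lower, where 6.61% of all genes tested had such a p and 5.06% had it with a lower value. None of the 10 passed over all genes, where 0.00706% of genes did, and none passed with DESeq2 or limma-voom either. The members lower in every line were 4 (Dsp, Dsg2, Dsc2 and Pkp2), beside 15.4% of all genes, and 1 (Evpl) was higher in every line, beside 14.8%. No member had groups that did not overlap, where 2.14% of all genes were entirely lower and 2.60% entirely higher. The median log2 fold change of the members was -0.07, and that of all genes tested was -0.0095 (quartiles -0.16 and 0.11).

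**Figure D2:**
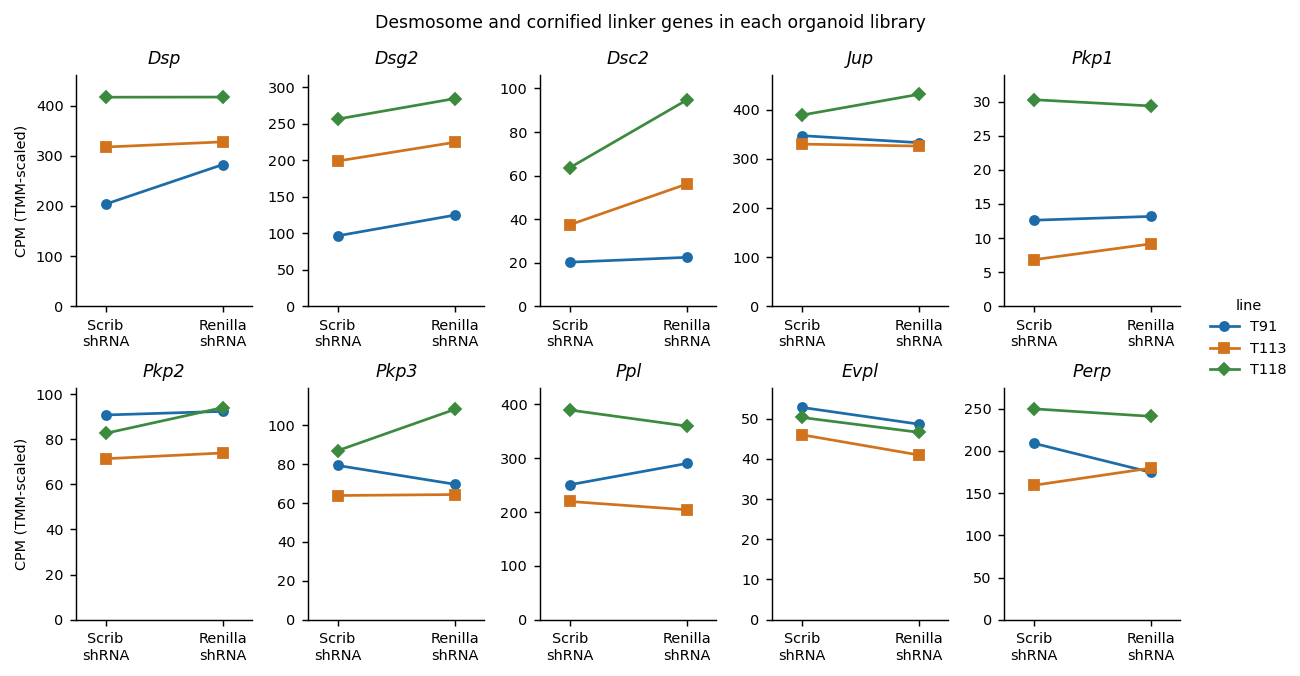
CPM of each gene (TMM-scaled, axes from 0) with the Scrib hairpin on the left and the Renilla hairpin on the right of each panel, with a line joining the 2 libraries of an organoid line. Dsc2 and Dsg2 slope the same way in all 3 lines, and with either hairpin T118 lies highest and T91 lowest for both.

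In the plaque, Dsp had its one sizeable difference in T91. Dsp, which encodes desmoplakin, had 204, 317 and 417 CPM with the Scrib hairpin in T91, T113 and T118, against 283, 328 and 417 CPM with the Renilla hairpin. It was 27.9% lower in T91 (counting interval 25.3 to 30.5% lower), 3.14% lower in T113 and level in T118, where the interval ran from 2.59% lower to 2.53% higher. Over the lines the log2 fold change was -0.17 (SE 0.12; adjusted p of 0.804 by edgeR), and without T91 it was -0.02. Jup, which encodes plakoglobin, had 347, 330 and 389 CPM with the Scrib hairpin, against 333, 326 and 431 CPM with the Renilla hairpin. Its log2 fold change was -0.02 (SE 0.09, 95% interval -0.25 to 0.20). The Dsp to Jup ratio per exon length was 0.391 with the Scrib hairpin and 0.566 with the Renilla hairpin in T91, 0.641 and 0.670 in T113, and 0.714 and 0.645 in T118.

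The T91 pair differed by transcript length across the whole transcriptome, and Dsp was the longest of the 10 at 9659 exon bases. In T91 the median log2 ratio of Scrib over Renilla hairpin was 0.26 for 989 genes under 1 kb of exon and -0.35 for 1186 genes of 10 kb or more. In T113 the same medians were 0.05 and -0.05, and in T118 they were -0.04 and 0.08. The 1009 genes of 8 to 10 kb, the class of Dsp and Dsg2, had a median of -0.20 in T91. Perp, the shortest member at 1952 bases, had a T91 log2 ratio of 0.26, in a class of 1 to 2 kb with a median of 0.21. RNA quality was not measured in these files, and its part in the trend was not tested.

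When the length trend was taken out of each line, an alternative chosen after seeing the data, the T91 ratio of Dsp was -0.24 in place of -0.47. Its log2 fold change over the lines became -0.10 (SE 0.08). The values of the cadherins moved less, to -0.43 (SE 0.12, unadjusted p of 0.00954) for Dsc2 and -0.18 (SE 0.07, unadjusted p of 0.0435) for Dsg2. After this step the Dsg2 ratios were -0.19 (T91), -0.15 (T113) and -0.20 (T118), closer together than before it.

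**Figure D3:**
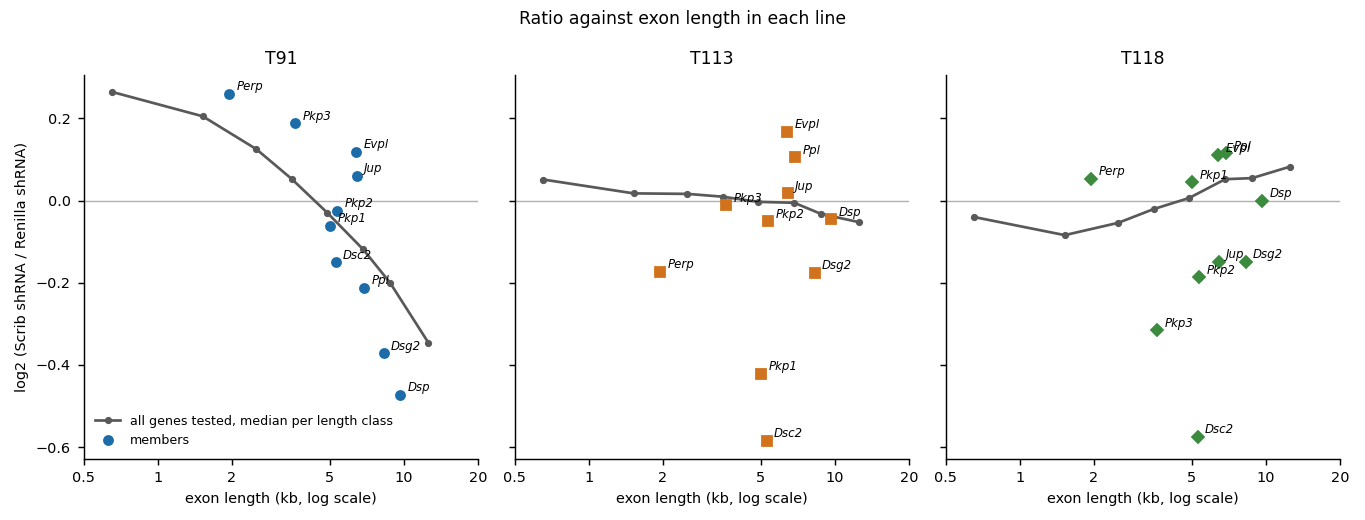
Log2 ratio of Scrib over Renilla hairpin against exon length (kb, log axis) in T91, T113 and T118, with coloured points for the 10 genes and a grey line for the median of all genes tested in 8 length classes. The grey line falls from 0.26 to -0.35 in T91 and stays between -0.08 and 0.08 in the other lines, where Dsc2 lies at -0.59 and -0.58.

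The plakophilins link plakoglobin, the cadherins and desmoplakin, and none of the 3 passed. Pkp2, the form found in simple epithelia and heart, had 90.8, 71.4 and 82.6 CPM with the Scrib hairpin in T91, T113 and T118, against 92.4, 73.9 and 94.1 CPM with the Renilla hairpin. In T91 it was lower by 1.74%, in T113 by 3.45% and in T118 by 12.1%, and the counting interval left out 0 in T118 alone. Its log2 fold change was -0.09 (SE 0.09, 95% interval -0.31 to 0.13; adjusted p of 0.856 by edgeR).

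Pkp3, which is broadly expressed in epithelia, had 79.3, 63.9 and 86.9 CPM with the Scrib hairpin and 69.6, 64.4 and 108 CPM with the Renilla hairpin. The Scrib library was 13.9% higher in T91, 0.781% lower in T113 and 19.7% lower in T118. Pkp1, the plakophilin of stratified epithelia, had 12.6, 6.83 and 30.3 CPM with the Scrib hairpin and 13.2, 9.16 and 29.3 CPM with the Renilla hairpin. Its T113 libraries differed by 25.4% (210 counts with the Scrib hairpin and 340 with the Renilla hairpin; interval 11.1 to 37.5% lower), while both other intervals included 0. The fitted log2 fold change was -0.05 (SE 0.12) for Pkp3 and -0.14 (SE 0.14) for Pkp1. The Pkp1 value was -0.0045 without T113 and -0.24 without T118, and that of Pkp3 was -0.16 without T91 and 0.09 without T118.

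As shares of the 3 plakophilins per exon length, Pkp3 and Pkp2 made up most of the total in every library. With the Scrib hairpin Pkp1 took 6.07% in T91, 4.21% in T113 and 13.2% in T118, against 6.71%, 5.46% and 10.96% with the Renilla hairpin. Pkp3 took between 49.2 and 56.1% of the total in the 6 libraries. With the longest protein-coding transcript as the length, Pkp3 took 40.9 to 49.0% and Pkp2 42.6 to 54.3%, and Pkp2 then exceeded Pkp3 in T91 and T113 with either hairpin, while Pkp3 exceeded Pkp2 in T118.

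Neither plakin of the cornified envelope passed. Evpl, which encodes envoplakin, had 52.8, 46.0 and 50.3 CPM with the Scrib hairpin in T91, T113 and T118, against 48.6, 41.0 and 46.6 CPM with the Renilla hairpin. It was the member that was higher in each line, by 8.59%, 12.3% and 7.94%, although its log2 fold change of 0.13 (SE 0.09, 95% interval -0.08 to 0.35) did not pass (adjusted p of 0.804 by edgeR). Ppl, which encodes its partner periplakin, had 251, 220 and 390 CPM with the Scrib hairpin, against 290, 204 and 360 CPM with the Renilla hairpin. Ppl was 13.7% lower in T91, 7.59% higher in T113 and 8.31% higher in T118, with a log2 fold change of 0.0031 (SE 0.10). The Evpl to Ppl ratio per exon length was 0.228 with the Scrib hairpin and 0.181 with the Renilla hairpin in T91, 0.226 and 0.217 in T113, and 0.139 and 0.140 in T118.

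Perp, a p53 and p63 target as well as a desmosome component, had 209, 159 and 250 CPM with the Scrib hairpin in T91, T113 and T118, against 175, 180 and 241 CPM with the Renilla hairpin. It was 19.7% higher in T91, 11.4% lower in T113 and 3.70% higher in T118, and its log2 fold change was 0.05 (SE 0.11, 95% interval -0.22 to 0.31). Of 10 genes listed with p53 and its targets, 9 were measured, 2 higher and 7 lower, and 0 passed over all genes or at an unadjusted p under 0.05. Cdkn1a, the cell cycle inhibitor p21, had the smallest p of these, with log2 ratios of 0.14 (T91), -1.18 (T113) and -2.06 (T118). Ratios on opposite sides of 0 in different lines, with counting intervals that left out 0, were found for 4 of the 10 members (Jup, Pkp3, Ppl and Perp) and for 27.5% of all genes. Trp63 was at 0 to 0.126 CPM with the Scrib hairpin and 0 to 0.235 CPM with the Renilla hairpin.

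**Figure D4:**
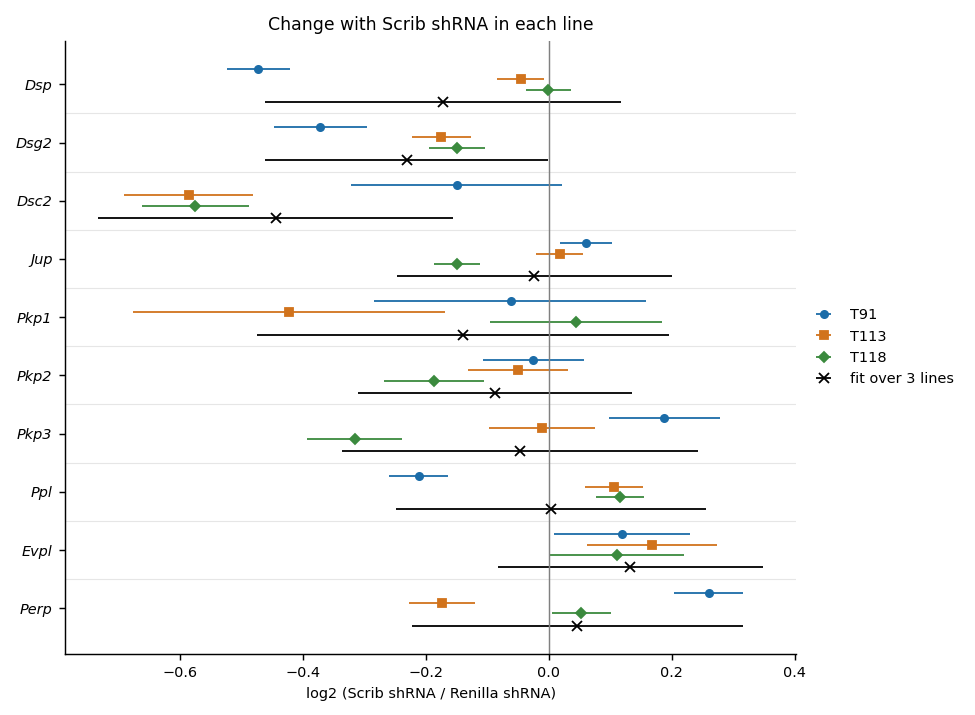
Log2 ratio of Scrib over Renilla hairpin for each gene, with coloured symbols for the 3 lines (bars are exact 95% counting intervals) and a black cross for the fitted log2 fold change (bars are its 95% interval over lines). The fitted intervals of Dsc2 and Dsg2 lie below 0, and those of the other 8 genes include 0.

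The cadherins, Pkp1, Ppl and Dsp differed between the organoid lines. By edgeR's F-test over the lines, 5 of the 10 genes had an adjusted p under 0.05, namely Dsc2 (0.00207), Dsg2 (0.00283), Pkp1 (0.00251), Ppl (0.0190) and Dsp (0.0354), where 14.0% of all genes passed. The spread behind this test comes from libraries of a line that carry different hairpins. Both cadherins ran in the order T118, T113, T91 with either hairpin. Dsc2 was 3.63-fold higher in T118 than in T91 (log2 difference 1.86, SE 0.15, adjusted p of 0.00125), 2.15-fold higher in T113 than in T91 (adjusted p of 0.00935) and 1.69-fold higher in T118 than in T113 (adjusted p of 0.0260). Dsg2 was 2.46-fold higher in T118 than in T91 (adjusted p of 0.00178) and 1.92-fold higher in T113 than in T91 (adjusted p of 0.00719). T118 and T113 were not separated for Dsg2 (1.28-fold, log2 interval 0.07 to 0.63, adjusted p of 0.114).

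Pkp1 and Ppl followed another order, T118, T91, T113. T91 and T113 were not separated for either gene (adjusted p of 0.0784 for Pkp1 and 0.209 for Ppl by edgeR). Pkp1 was 3.75-fold higher in T118 than in T113 (adjusted p of 0.00256) and 2.32-fold higher in T118 than in T91 (adjusted p of 0.00792). Ppl was 1.77-fold higher in T118 than in T113 (adjusted p of 0.0143) and 1.38-fold higher in T118 than in T91, which did not pass (adjusted p of 0.0703). Dsp was 1.73-fold higher in T118 than in T91 (adjusted p of 0.0203). This fold joins both hairpins, and the gap was wider with the Scrib hairpin (417 against 204 CPM) than with the Renilla hairpin (417 against 283 CPM). The share of all genes higher in T118 was 5.24% against T91 and 4.91% against T113, and 2.89% of genes were higher in T113 than in T91. Jup, Pkp2, Pkp3, Evpl and Perp did not pass the F-test (adjusted p from 0.0805 to 0.370). With no term for the hairpin, Pkp3 passed as well (adjusted p of 0.0490), which made 6 of 10.

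The length trend was smaller between lines than within the T91 pair. Genes of 8 to 10 kb had a median log2 difference of 0.03 for T118 over T91 and 0.09 for T113 over T91, beside 1.30 and 0.94 for Dsg2. In variance of log2 CPM, the line took 94.95% for Dsg2, 90.96% for Dsc2, 97.6% for Pkp1 and 84.9% for Dsp, against a median of 62.8% over all genes. The members that did not pass the F-test also lay above that median, from 66.0% for Evpl to 90.0% for Jup. The hairpin took 4.27% for Dsg2, 7.44% for Dsc2 and 32.8% for Evpl, against a median of 8.09%.

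**Figure D5:**
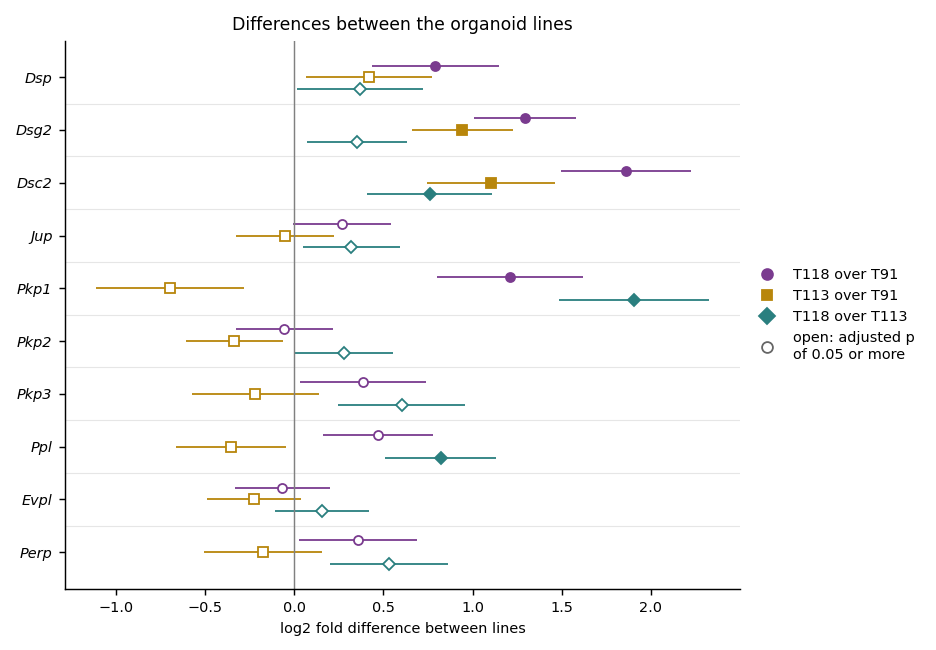
Log2 fold difference between lines for each gene, with the first-named line on top of the ratio, bars for 95% intervals and filled symbols where the adjusted p was under 0.05. Dsc2 has filled symbols in all 3 comparisons (1.86, 1.10 and 0.76), and Pkp1 in the 2 that involve T118.

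Genes with the pattern most like the members over the 6 libraries were Klk10, Car13 and Egfl6, with Pearson r of 0.999, 0.997 and 0.997 to the mean z-score of the 10 genes. Klk10, a secreted serine protease of the kallikrein family, had 1.51, 0.814 and 9.44 CPM with the Scrib hairpin in T91, T113 and T118, against 1.64, 0.970 and 13.8 CPM with the Renilla hairpin. All 3 were high in T118 and lowest in T113 with either hairpin, as Pkp1 and Ppl were. Dsg2, Dsc2 and Dsp were instead lowest in T91, so the mean does not stand for each member. Pkp2 and Evpl had fitted log2 differences of -0.05 and -0.07 for T118 over T91. The 6 points come from 3 pairs of libraries that share a line, and 149 genes had an r of at least 0.95.

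Other desmosome genes were close to absent. Of 9 further desmosome genes only Pkp4, a plakophilin relative, was measured, with 245 to 341 CPM with the Scrib hairpin, 265 to 329 CPM with the Renilla hairpin and a log2 fold change of -0.0068 (SE 0.10). Dsg1a, Dsg1b and Dsc1 had no count in any library, which allows up to 3 counts or 0.0828 to 0.125 CPM per library before TMM scaling. Dsg3, the desmoglein of basal squamous cells, reached 0.659 CPM in the T118 Scrib library and was at most 0.239 CPM elsewhere.

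Of 21 cornified envelope genes 12 were measured, 7 higher and 5 lower with a median log2 fold change of 0.03, and 0 passed over all genes or at an unadjusted p under 0.05 by edgeR. With the length trend taken out, the balance of this list turned to 5 higher and 7 lower (median -0.02), and without T91, 4 were higher and 8 lower (median -0.20). Sprr1a, a cornified envelope precursor, passed in the fit without T91 (log2 fold change -1.61, adjusted p of 0.0209 by edgeR), where 0.543% of all genes were called lower. Over all lines Sprr1a did not pass (log2 fold change -0.92, SE 0.54, adjusted p of 0.791 by edgeR). Its log2 ratios were 0.40 (T91), -1.29 (T113) and -1.98 (T118), so the line left out ran the other way. Lor, the envelope protein loricrin, had a log2 fold change of 0.42 (SE 0.21) at 1.64 to 3.74 CPM. Ivl, which encodes involucrin, had one of -0.53 (SE 0.33), with log2 ratios of 0.45 (T91), -0.98 (T113) and -1.13 (T118).

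The keratins that desmosomes anchor were mostly of the simple kind. Of 6 simple keratins 4 were lower and 2 higher, and Krt20 had a log2 fold change of -0.61 (SE 0.24; unadjusted p of 0.0417, adjusted p of 0.748 by edgeR). Without T91, 5 of the 6 were lower and Krt20 passed (log2 fold change -0.96, adjusted p of 0.0349 by edgeR), where 0.543% of all genes were called lower. Without T113 and without T118, 3 were lower and 3 higher. Krt8 and Krt19, keratins typical of ductal cells, had log2 fold changes of -0.22 (SE 0.15) and -0.25 (SE 0.18). Of 11 stratified keratins 4 were measured, 2 higher and 2 lower, and Krt4 had the smallest p, with a log2 fold change of 0.40 (SE 0.15; unadjusted p of 0.0337, adjusted p of 0.748).

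All 10 core adherens junction genes had log2 fold changes below 0, with a median of -0.17, beside 51.8% of all genes below 0. The E-cadherin gene Cdh1 had one of -0.19 (SE 0.09) and the nectin gene Nectin1 one of -0.26 (SE 0.11). None had an unadjusted p under 0.05 in the fit over all lines. Without T91, 9 of the 10 were below 0 with a median of -0.04, and 1 of these had such a p by edgeR. Of all genes in the fit without T91, 2401 of 14366 had such a p in either direction. All 7 measured plakin and hemidesmosome genes were below 0 as well, with a median of -0.20, and 5 of 7 without T91 (median -0.14). Dst, which encodes the giant plakin dystonin, had one of -0.45 (SE 0.13, unadjusted p of 0.0142) and the plectin gene Plec one of -0.25 (SE 0.09, unadjusted p of 0.0265). None of these passed over all genes (adjusted p of 0.712 and 0.746 for Dst and Plec by edgeR).

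The plakins are among the longest genes tested, and in T91 their ratios were -0.81 for Dst and -0.30 for Plec. With the length trend taken out, 5 of 7 plakin and hemidesmosome genes were below 0 with a median of -0.10. All 10 adherens junction genes were then below 0 with a median of -0.11. In that fit 1 plakin and hemidesmosome gene and 2 adherens junction genes had an unadjusted p under 0.05 by edgeR. Such a p was found for 1044 of 14169 genes tested, and 0 of these listed genes passed over all genes. Both giant plakin genes Macf1 and Eppk1, named after their values were seen, had T91 ratios of -0.81 and -0.68 and were higher in T113 (0.21 and 0.19) and T118 (0.49 and 0.27).

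Of 16 listed regulators of desmosome genes and cadherin shedding 12 were measured, 5 higher and 7 lower with a median of -0.09, and 0 passed over all genes. Grhl1, a grainyhead-like factor that activates desmosomal cadherin genes in mouse epidermis, had a log2 fold change of 0.21 (SE 0.13). Prkca, a protein kinase C that loosens desmosomes, had one of -0.32 (SE 0.09, unadjusted p of 0.0144), and Adam10, a protease that sheds cadherins, one of -0.20 (SE 0.11). Zeb1, Zeb2 and Snai2, repressors of epithelial junction genes, were at or under 0.137 CPM in all 6 libraries. Snai1, another such repressor on the list, passed the low-count filter, and its values are not given here.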

How the data were processed

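RNA was sequenced from 6 organoid cultures, 3 lines with 2 hairpins each. The deposited tables, 1 for each library, hold estimated counts for Ensembl genes, not scaled for depth by the authors. Per the submitters' processing notes, Salmon 1.4.0 and DESeq 2 were used with GRCm38 (mm10), while strand setting and transcript annotation were not stated in the sources, so overlapping antisense reads may not be told apart. The estimated counts were rounded and analysed in R 4.3.3 with edgeR 4.0.16, limma 3.58.1 and DESeq2 1.42.0. Symbols and exon lengths came from GENCODE M21, also GRCm38, which matched 54131 of 54453 identifiers. Genes were filtered with filterByExpr (minimum count 10), libraries were scaled by TMM, and CPM values use that scaling.

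The test was edgeR's quasi-likelihood F-test with terms for line and hairpin, two-sided, Benjamini-Hochberg adjusted over 14169 genes at a threshold of 0.05. It was tested on simulated data that gave every gene the same dispersion and held no trend with length. The simulation therefore does not cover the length trend of the T91 pair. The line was a term because both hairpins went into the same line, and deviations from the group means correlated within lines across genes (0.621 for T91, 0.666 for T113, 0.662 for T118). With 1 library for each line and hairpin, variation between cultures of a line is unknown. The p-values rest on how far the ratio between hairpins differed from line to line, with each gene's variance moderated by that of other genes. Ratios in a line used 0.5 added counts for ranking directions and exact intervals for the printed percentages.

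The members and lists were chosen with earlier results of these data known. The text names the 10 members and Scrib, up to 4 genes per list in order of p, and the 3 genes most like the members. Genes at very low level (Trp63, Zeb1, Zeb2, Snai2, Dsg3 and the markers at 0) were named after their values were seen. So were Sprr1a and the T91 examples Macf1 and Eppk1. Snai1 was added as the listed repressor beside Zeb1, Zeb2 and Snai2. Sequences of Dsg2 and Dsc2 are not reported here. Alternatives covered the line term, scaling, filters, DESeq2, limma-voom, dispersions, each line left out, the length used and, added later, length-trend offsets.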

Additional observations from a re-analysis of the deposited data

Results flagged for a closer look

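For 4 of the 10 genes the ratio of Scrib over Renilla hairpin lay on opposite sides of 0 in different lines. The exact 95% counting intervals on each side left out 0. The same held for 27.5% of all genes tested, a share that includes genes with fewer counts and so wider intervals. With 1 pair of libraries per line the difference between lines was not tested, and the intervals cover counting error only. Jup had a log2 ratio of Scrib over Renilla hairpin of 0.061 in T91 and -0.15 in T118. Pkp3 had 0.19 in T91 and -0.32 in T118. Ppl had -0.21 in T91, 0.11 in T113 and 0.12 in T118. Perp had 0.26 in T91, -0.17 in T113 and 0.052 in T118. With the length trend taken out of each line, the 4 genes still had ratios on both sides of 0, at 0.17 in T91 and -0.18 in T118 for Jup and 0.15 in T91 and -0.29 in T118 for Pkp3. Ppl then had -0.085 (T91), 0.12 (T113) and 0.075 (T118). Perp had 0.092 in T91, -0.18 in T113 and 0.12 in T118.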

How the results depend on the processing

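The count of genes that passed over all genes depended on the processing, at 1 with edgeR and the low-count filter, 64 without that filter, 63 with DESeq2, 8 with limma-voom and 9 to 94 with 1 line left out. The count of desmosome genes among them was 0 under all of these but the fit without T91, so it ran from 0 to 1 with a line left out, the 1 being Dsc2. Ppl, near 0 throughout, turned to -0.016 without the filter and to -0.0045 with an average CPM of at least 5. Jup turned to 0.0051 with the length trend taken out. The unadjusted p of Dsg2 by edgeR was 0.0510 with scaling by library totals only and 0.0519 with non-robust dispersions. It was also over 0.05 with any line left out. With 1 line left out, Ppl ran from -0.056 to 0.11, Jup from -0.065 to 0.037, Pkp3 from -0.16 to 0.086 and Perp from -0.060 to 0.16. Dsc2 ran from -0.58 to -0.36, Dsg2 from -0.28 to -0.16, Dsp from -0.26 to -0.02, Pkp1 from -0.24 to -0.0045, Pkp2 from -0.12 to -0.04 and Evpl from 0.12 to 0.14. Between lines, 6 members passed with no hairpin term and 5 under the other alternatives run. The median level per length over the members was 31.5 CPM per kb with the longest coding transcript and 22.8 with the union of exons.

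Without the replicate block, that is with no term for the line that pairs the libraries, 1 gene passed, 0 of the 10 members passed, and 0 members had an unadjusted p under 0.05. The 3 pairs and 2 residual degrees of freedom limit what these tests can call. The fits with a line left out have fewer pairs and fewer residual degrees of freedom. Counting error is largest for Pkp1, with 210 counts in its lowest library.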
